A study of Danio rerio with 36 samples.

Results

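RNA of zebrafish larvae sampled 24 h after amputation of the caudal fin in medium with 222 mM D-glucose was compared with RNA of uncut larvae kept in the same glucose. The labels place 3 libraries in each group, so the comparison uses 6 of the 36 libraries of the series, and no measured value entered their choice. All larvae were wild type, and each library was made from whole larvae, so a value covers every tissue and not the fin alone. Per the series text, embryos entered the glucose medium at 6 h after fertilisation and were exposed for 14 days. The tail fin was then cut off distal to the spinal cord, which was left intact, and the larvae went back to the medium they came from. The same text writes the higher dose once in nM, while the sample labels give mM.

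The 24 h group in 222 mM glucose was set against its uncut group throughout. Larvae in 130 mM glucose and in regular medium without added glucose, each again with 3 libraries at 24 h and 3 uncut, served for tests of whether the response itself differed between media. Libraries taken 3 h and 48 h after amputation in 222 mM glucose are given beside the 24 h values. They share the uncut libraries with the 24 h comparison, so the 3 time points are not independent of each other. Each medium has 1 uncut group, of unstated age at sampling, so the effect of amputation cannot be told apart from that of time in the dish or hour of sampling. A control for osmotic strength was not analysed here. The labels do not say whether replicates came from separate dishes or pools of larvae. The p-values therefore measure only the spread between these libraries, which may be technical.

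The larval caudal fin regrows after amputation. In zebrafish, a wound epidermis closes the stump, neutrophils and then macrophages arrive, and a zone of dividing mesenchymal cells rebuilds the fold under Fgf, Wnt and retinoic acid signals. Long exposure to high glucose is used in this species as a model of hyperglycaemia, and the series title names inflammation and regeneration as its subject. Several of the genes that moved here belong to the aryl hydrocarbon receptor pathway. That receptor is a ligand-activated transcription factor which, once bound by planar aromatic compounds or tryptophan products, switches on cytochrome P450 enzymes of family 1 together with its own repressors.

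Reads assigned to genes ranged from 47904694 to 67514889 per library over the series. The 24 h libraries in 222 mM glucose had 50697972, 63442681 and 61402985 counts, and the uncut libraries had 53351647, 52181026 and 55666833. Levels below are CPM, read counts scaled to library size with TMM factors, which are not corrected for gene length and so compare libraries, not genes. Fold changes are on the log2 scale with their standard error, and a gene is said to have risen or fallen when its Benjamini-Hochberg adjusted p from edgeR's quasi-likelihood test over 20120 genes was under 0.05. Markers of 13 tissues and cell types were looked up, and each type had at least 1 marker counted in all 6 libraries; the adult globin genes hbaa1 and hbba1 were at 0 in all 6 and in 5 of 6 libraries. In 4 of the 36 libraries, the correlation of log2 CPM with the other replicates lay more than 0.02 below that between those replicates. Replicate 3 of the uncut larvae in 222 mM glucose was one of them (0.9545, against 0.9803 between the other 2). The others were replicate 3 of the uncut larvae in regular medium, replicate 1 at 3 h in regular medium and replicate 1 at 24 h in 130 mM glucose.

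At 24 h in 222 mM glucose, 926 genes differed from uncut larvae, 4.60% of the genes tested. Of these, 365 rose (1.81%) and 561 fell (2.79%), and the median of all genes was -0.01. Among the called genes, 302 changed more than 2-fold, 73 upward and 229 downward. In 857 of them the 3 and 3 libraries did not overlap, against 4041 genes without overlap in all (20.1%). The call survived the removal of each of the 6 libraries in turn for 245 genes, 93 higher and 152 lower. Without uncut replicate 3 the count was 1660, of which 762 rose and 898 fell; without 24 h replicate 1 it was 457, without 24 h replicate 2 it was 609, without 24 h replicate 3 it was 542, without uncut replicate 1 it was 529, and without uncut replicate 2 it was 562. Without all 4 libraries that stood apart, an omission chosen after the data were seen, 3625 genes passed. Of the called genes 39.4% were higher, and with median-ratio scaling of the same counts 344 were higher and 572 lower (37.6% higher). limma on log2(FPKM + 0.1), which differs from the edgeR fit in measure, scaling and test at once and moved the median of all genes to 0.09, called 771 genes higher and 358 lower (68.3% higher). Of the 67 genes named below for a rise or fall, 65 also passed in that fit with the same sign. In the edgeR model 180 genes passed at 3 h (0.895%) and 3451 at 48 h (17.2%) in 222 mM glucose. At 24 h, 538 passed in 130 mM glucose (2.67%) and 1968 in regular medium (9.78%). Without the 4 libraries that stood apart, these counts were 3598 at 3 h, 4961 at 48 h, 3744 in 130 mM glucose and 5423 in regular medium. The order of the times by count was thus the same without these libraries, but the counts at 3 h and 24 h then lay close together. Among the media at 24 h, 130 mM glucose then stood above 222 mM glucose, and regular medium stayed highest.

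**Figure D1:**
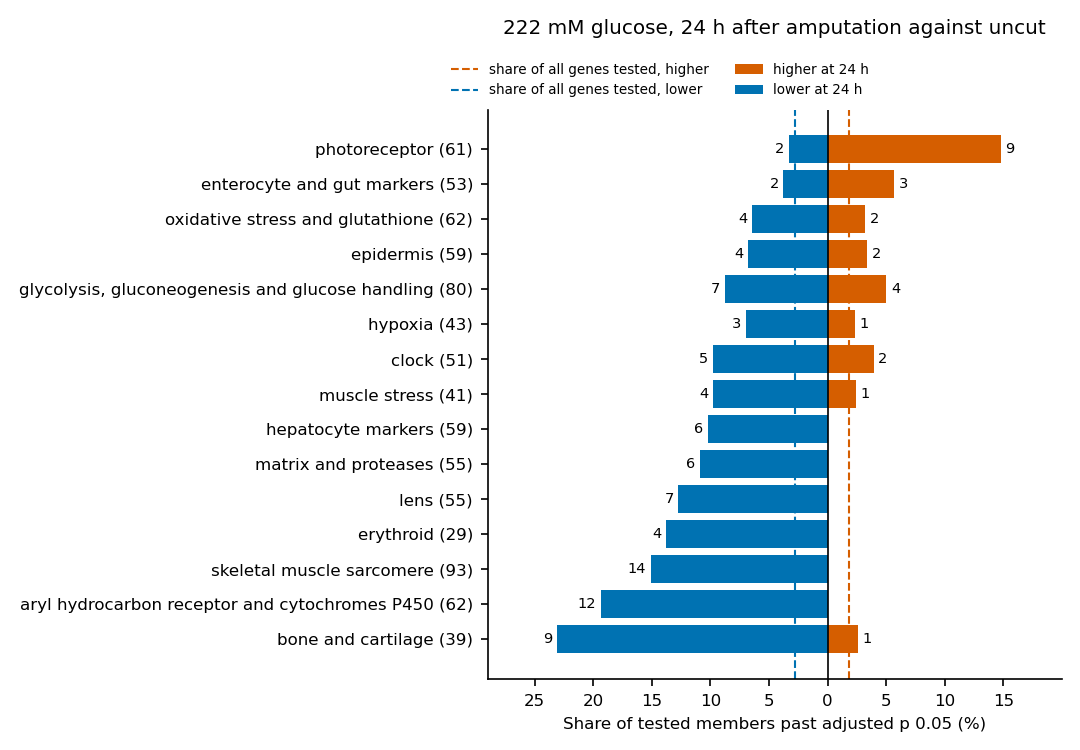
Share of the tested members of each gene list that rose (right, orange) or fell (left, blue) at 24 h against uncut larvae in 222 mM glucose, in percent, for lists with at least 4 called members. Dashed lines mark the shares over all genes tested, 1.81% higher and 2.79% lower; bone and cartilage, aryl hydrocarbon receptor and sarcomere lists reach furthest to the left, and photoreceptor genes furthest to the right.

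The highest shares of falls were found in 3 of the 40 gene lists. Of 39 bone and cartilage genes, 9 fell and 1 rose; of 62 aryl hydrocarbon receptor and P450 genes, 12 fell and 0 rose; of 93 sarcomere genes, 14 fell and 0 rose. The corresponding shares of falls were 23.1%, 19.4% and 15.1%, beside 2.79% of all genes. The photoreceptor list was the one with the highest share of rises, 9 of 61 (14.8%, beside 1.81% of all genes), with 2 falls. The lists are described by their counts and were not tested as sets.

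The largest fall among well-measured genes was that of cyp1a, the cytochrome P450 enzyme that serves as the standard readout of aryl hydrocarbon receptor activity (ENSDARG00000098315, GRCz11 chr18:5588068-5598958, minus strand). It had 320, 411 and 412 CPM at 24 h, against 5415, 4311 and 3886 CPM in uncut larvae. The groups lay far apart, and the mean was 11.9-fold lower at 24 h (log2 fold change -3.57 ± 0.57, adjusted p = 0.00048). The receptor's repressor genes moved the same way. ahrra (chr24:42094833-42101600) had 8.78, 7.65 and 7.99 CPM at 24 h and 41.1, 39.6 and 35 CPM in uncut larvae (-2.24 ± 0.32, adjusted p = 1e-04). Its paralog ahrrb fell by 2.93 ± 0.57 (adjusted p = 0.0027), from a low level that reached at most 7.43 CPM in any of the 6 libraries. tiparp, which encodes a poly(ADP-ribose) polymerase that restrains the receptor, had 40, 35.2 and 38 CPM at 24 h and 123, 102 and 77.1 CPM in uncut larvae (-1.42 ± 0.18, adjusted p = 1.5e-05). All 3 repressor genes were lower in every 24 h library than in any uncut library.

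Other genes that are known in zebrafish to answer to dioxin-like ligands followed. foxq1a, a forkhead transcription factor gene, had 25.8, 30.2 and 30.1 CPM at 24 h, against 129, 104 and 124 CPM in uncut larvae (-2.05 ± 0.25, adjusted p = 1.1e-05), and its paralog foxq1b fell by 1.13 ± 0.23 (adjusted p = 0.0044). The groups did not overlap for either gene. cyp1b1, a second family 1 enzyme, had 19.1, 14.6 and 11.3 CPM at 24 h and 86.4, 94.4 and 106 CPM in uncut larvae (-2.67 ± 0.60, adjusted p = 0.0094); without 24 h replicate 3 its adjusted p was 0.053 at -2.51. Genes of conjugating enzymes, which attach sugar or sulfate groups to foreign compounds, also fell. ugt1b1, a UDP-glucuronosyltransferase gene outside the list, fell by 1.94 ± 0.35 (adjusted p = 0.0017) and sult6b1, a sulfotransferase gene, by 1.16 ± 0.20 (adjusted p = 0.00084). A growth factor gene on the same chromosome as cyp1a, fgf7, which is not in the list (chr18:5428472-5439775), had 3.06, 2.78 and 3.27 CPM at 24 h and 18.1, 15.3 and 18.7 CPM in uncut larvae (-2.51 ± 0.43, adjusted p = 0.00081). The aryl hydrocarbon receptor and P450 list summed to 3196, 3005 and 3007 CPM at 24 h. In uncut larvae it summed to 8930, 7526 and 7354 CPM, with no overlap. Most of the fall in the sum was that of cyp1a, whose levels are given above. The median log2 fold change of the list was -0.21. Without uncut replicate 3, 13 members fell and 2 rose.

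The time course in 222 mM glucose extended these values. cyp1a had 5415, 4311 and 3886 CPM in uncut larvae, 727, 851 and 2142 CPM at 3 h, 320, 411 and 412 CPM at 24 h, and 178, 168 and 189 CPM at 48 h. At 3 h 1 library was nearer to the uncut level than the other 2, and the 3 h difference did not pass (-1.87, adjusted p = 0.084), while the 48 h one did (-4.67 ± 0.60). foxq1a had 129, 104 and 124 CPM in uncut larvae, 48.6, 37.6 and 49.7 CPM at 3 h, 25.8, 30.2 and 30.1 CPM at 24 h, and 26.6, 32.3 and 34.6 CPM at 48 h. For foxq1a every cut library of any time lay below every uncut library.

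**Figure D2:**
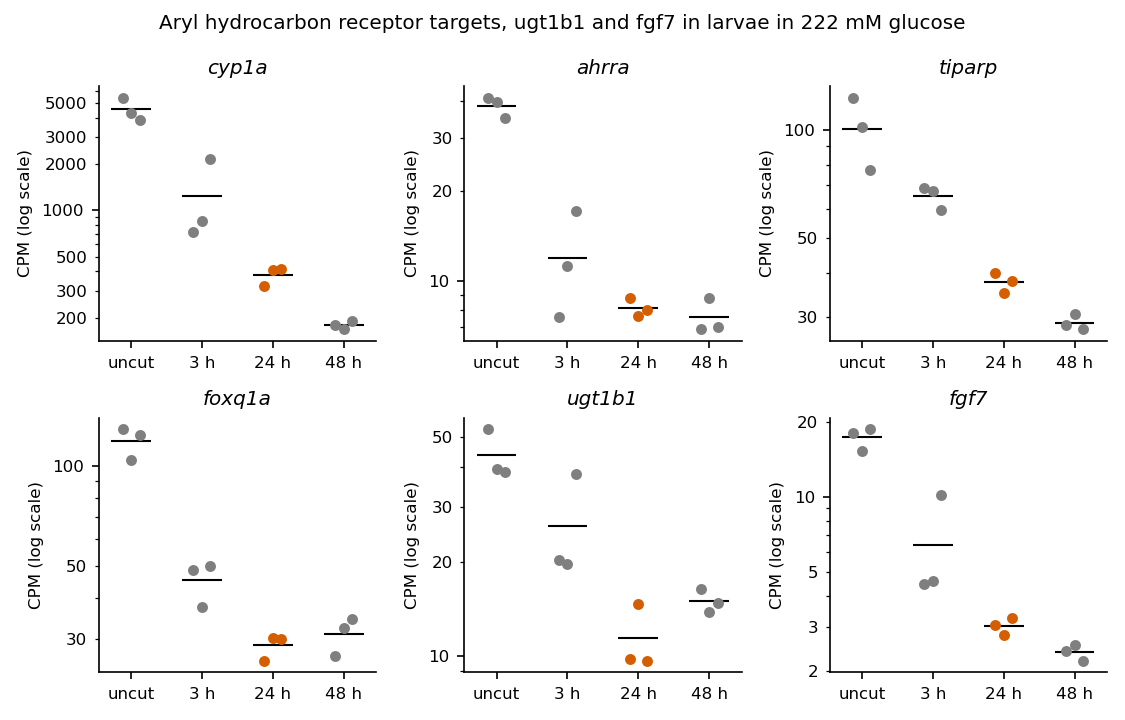
CPM (log axis) of 6 genes in each library of larvae kept in 222 mM glucose: uncut and 3 h, 24 h and 48 h after amputation, with 3 points per time and bars at the mean. In all 6 panels the 24 h points (orange) lie below the uncut points, and for cyp1a the 48 h points, at 168 to 189 CPM, are lower still.

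The levels of cyp1a in the other media set these values in context. In 130 mM glucose it had 475, 196 and 140 CPM at 24 h and 2301, 2044 and 2249 CPM uncut (-3.02 ± 0.55). In regular medium it had 649, 619 and 614 CPM at 24 h and 671, 783 and 223 CPM uncut (0.17 ± 0.51). Uncut larvae in 222 mM glucose thus had the highest cyp1a of these 6 groups, and the 24 h larvae lay below the 24 h larvae of regular medium in every library. The response in 222 mM glucose differed from that in regular medium by -3.74 ± 0.75 (adjusted p = 0.0063), and the difference from the response in 130 mM glucose was -0.55 ± 0.73 (adjusted p = 0.72). For ahrra the differences were -2.94 (adjusted p = 0.00044) against regular medium and -0.26 (adjusted p = 0.8) against 130 mM. foxq1a differed from its response in regular medium by -2.04 (adjusted p = 0.00079) and fgf7 by -2.67 (adjusted p = 0.011). Each of these 4 differences from regular medium held without each of the 12 libraries in turn. Falls in the list were not confined to 222 mM glucose. Of its 62 genes, 10 fell and 3 rose in regular medium, where 4.24% of all genes fell. In 130 mM glucose 6 fell and 0 rose, where 181 of 20120 genes fell. The response in 222 mM glucose was lower than in regular medium for 9 of the 62 and higher for 2, against 2.57% and 1.29% of all genes.

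Of 93 genes of the contractile apparatus tested, here called sarcomere genes, 14 fell, 0 rose and 79 did not pass, with a median of -0.40 against -0.01 for all genes. The list summed to 52679, 61324 and 57067 CPM at 24 h, against 75896, 75302 and 83132 CPM in uncut larvae, without overlap. Between 12 and 19 members passed when 1 library was left out. In bulk RNA, fewer cells of a type and less RNA per cell cannot be told apart, here and in every list below. acta1a, a skeletal muscle actin gene (chr1:53945934-53953532), had 35.8, 29.3 and 39.3 CPM at 24 h and 90.7, 77.5 and 137 CPM in uncut larvae (-1.55 ± 0.23, adjusted p = 0.00012). The 24 h libraries were all below the uncut ones.

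Several fast myosin heavy chain genes lie next to each other on chromosome 5 and fell. myha (chr5:32246872-32257316) had 22.1, 30 and 43.1 CPM at 24 h and 102, 115 and 101 CPM in uncut larvae (-1.74 ± 0.24, adjusted p = 6.2e-05). myhc4 (chr5:32221755-32233860) had 80.4, 109 and 114 CPM at 24 h and 254, 329 and 287 CPM in uncut larvae (-1.52 ± 0.22, adjusted p = 9.4e-05). The most abundant of them, myhz1.1 (chr5:32298624-32309129), had 4606, 4666 and 4908 CPM at 24 h and 8475, 10231 and 10017 CPM in uncut larvae (-1.02 ± 0.18, adjusted p = 0.00096). The groups did not overlap for any of the 3. These genes are close copies of each other, and how the counting split reads between copies is not given in the sources used here, so the values of the single copies are uncertain.

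Falls were also measured for members with other roles in the fibre. myl1, a fast alkali light chain gene, fell by 1.54 ± 0.25 (adjusted p = 0.00035), and trdn, whose protein triadin anchors calsequestrin at the calcium release site, by 1.14 ± 0.19 (adjusted p = 0.00052). mb, which encodes the oxygen carrier myoglobin, fell by 0.81 ± 0.15 (adjusted p = 0.0016), and desma, encoding the intermediate filament desmin, by 1.29 ± 0.25 (adjusted p = 0.0032). myoz3a, encoding a Z-disc protein of the myozenin family, fell by 1.44 ± 0.22 (adjusted p = 0.00012). A separate list of 41 muscle stress genes had 4 falls (9.76%) and 1 rise (2.44%), beside 2.79% and 1.81% of all genes. Its mustn1a, a small nuclear protein gene of muscle and skeleton, had 0.193, 0.283 and 0.146 CPM at 24 h and 0.971, 0.996 and 0.855 CPM in uncut larvae (-2.17 ± 0.38, adjusted p = 0.00073), a fall at a low level. Its rise was that of ankrd1b, a gene for a muscle ankyrin repeat protein, which had 16.5, 17.8 and 13.8 CPM at 24 h and 7.91, 7.43 and 8.37 CPM uncut (1.02 ± 0.23, adjusted p = 0.0073).

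Some muscle genes responded differently in 130 mM glucose. There, acta1a had 85.5, 149 and 149 CPM at 24 h and 66.6, 66.5 and 75.3 CPM uncut, a change of 0.88, and the difference between the responses was -2.43 ± 0.32 (adjusted p = 0.00014). The difference was -1.64 ± 0.31 for myhc4 (adjusted p = 0.0032) and -1.70 ± 0.27 for trdn (adjusted p = 0.0006). All 3 held without each of the 12 libraries. Over all genes, 837 responses differed between 222 and 130 mM (4.16%), 232 higher (1.15%) and 605 lower (3.01%) in 222 mM. With limma on log2(FPKM + 0.1), 435 were higher and 399 lower. In edgeR, omitting 130 mM 24 h replicate 1, which stood apart, gave 1290 genes. Omitting 130 mM 24 h replicate 2 or 3, 130 mM uncut replicate 2 or 3, or 222 mM 24 h replicate 2 or 3 gave 326 to 508. Of the 93 sarcomere genes, 14 were lower and 1 was higher (median -0.61), and in 130 mM glucose itself 3 rose and 2 fell. Without 130 mM 24 h replicate 1, which stood apart, 30 sarcomere genes passed, and without 130 mM uncut replicate 3, 8 did. The count against regular medium was similar, with 13 lower and 1 higher (median -0.52), where 2.57% and 1.29% of all genes were. It ran from 5 without regular medium 24 h replicate 1 to 18 without 222 mM uncut replicate 2. In 222 mM glucose at 48 h the direction was the opposite of that at 24 h for some of the same genes, with acta1a at 0.94 and myhz1.1 at 0.89 relative to the same uncut libraries, and 41 sarcomere genes higher, where 8.41% of all genes were.

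Cartilage and bone genes had the highest share of falls. Of 39 tested, 9 fell and 1 rose, with a median of -0.73, and the list summed to 1063, 1182 and 1122 CPM at 24 h and to 1592, 1673 and 1839 CPM in uncut larvae. Without 24 h replicate 1, 5 members passed. Aggrecan is the large proteoglycan that gives cartilage its compressive stiffness. Its gene acanb (chr25:19213872-19224298) had 1.41, 0.959 and 1.81 CPM at 24 h, against 5.69, 6.32 and 16.4 CPM in uncut larvae (-2.77 ± 0.47, adjusted p = 0.00081). The paralog acana (chr7:48761646-48787379) had 6.06, 7.83 and 11.8 CPM at 24 h and 19.6, 23.4 and 78.7 CPM in uncut larvae (-2.24 ± 0.45, adjusted p = 0.0038). Uncut replicate 3 was the highest library for both genes. Without it, acana stood at -1.33 and still passed. matn1, the gene of the cartilage matrix protein matrilin 1 (chr19:43314700-43338280), had 6.3, 10.1 and 13.5 CPM at 24 h and 37.7, 37.7 and 81.4 CPM in uncut larvae (-2.39 ± 0.44, adjusted p = 0.0019). For all 3 genes, no 24 h library reached the lowest uncut one.

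Bone resorption was represented by ctsk, the osteoclast collagenase cathepsin K (chr16:29492749-29502787). It had 32.4, 37.5 and 36.3 CPM at 24 h and 59.4, 50.7 and 91.8 CPM in uncut larvae (-0.93 ± 0.15, adjusted p = 0.00034). In regular medium ctsk had 80.1, 73.7 and 78.2 CPM at 24 h and 39.6, 39 and 53.7 CPM uncut (0.81 ± 0.15), so that the responses of these media had opposite signs. The response in 222 mM glucose differed from that in regular medium by -1.74 ± 0.21 (adjusted p = 3.3e-05) and from that in 130 mM by -1.40 ± 0.21 (adjusted p = 0.00045), each held without any single library. acanb also differed from its response in 130 mM, by -2.80 ± 0.63 (adjusted p = 0.012).

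**Figure D3:**
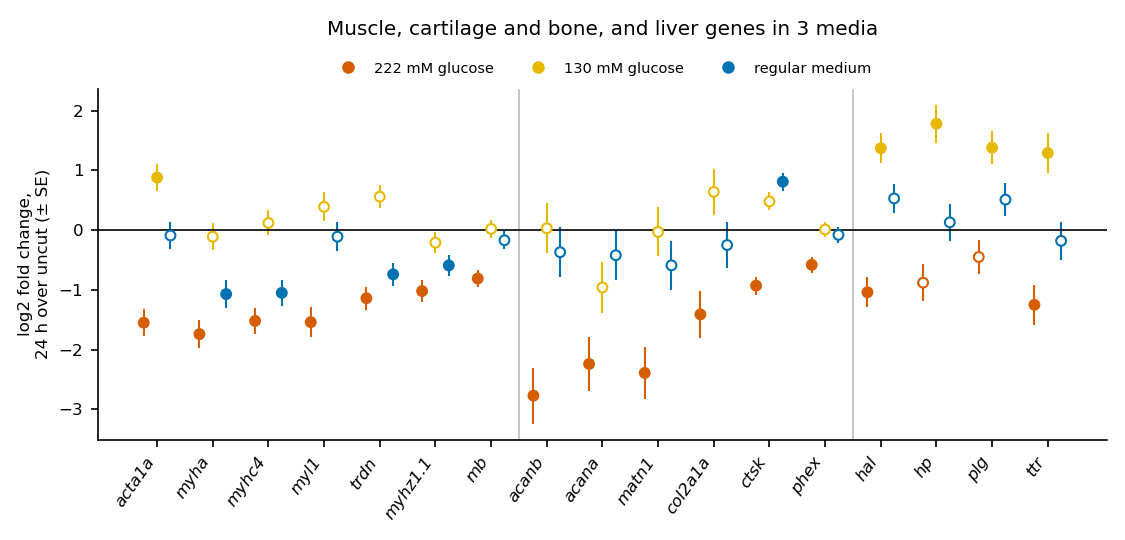
Log2 fold change at 24 h against uncut larvae (points, bars = SE) in 222 mM glucose, 130 mM glucose and regular medium for muscle, cartilage and bone, and liver genes; filled points have an adjusted p under 0.05. In 222 mM glucose the muscle and cartilage genes lie between -0.58 and -2.77, while acta1a stands at 0.88 and hal at 1.37 in 130 mM glucose.

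Of 55 matrix and protease genes, 6 fell (10.9%, beside 2.79% of all genes) and 0 rose (median -0.41). The list summed to 3144, 3115 and 3135 CPM at 24 h and to 4493, 4399 and 4791 CPM uncut. Without uncut replicate 3, 11 fell, and without 24 h replicate 2, 4 did. They included lama4, a laminin chain gene of basement membranes (-0.54 ± 0.11, adjusted p = 0.0035), and a pair of neighbouring genes that carry the symbol timp4, an inhibitor of metalloproteinases. ENSDARG00000100795 fell by 1.06 ± 0.21 (adjusted p = 0.0034) and ENSDARG00000111805 by 1.45 ± 0.30 (adjusted p = 0.0047), and the counts of these copies may share reads. Of 59 epidermal genes, 4 fell (6.78%) and 2 rose (3.39%), beside 2.79% and 1.81% of all genes. Of the 59, 2 passed without 24 h replicate 1 and 9 without uncut replicate 3, where 1660 of all 20120 genes did. krt8, a simple epithelial keratin gene, had 919, 866 and 857 CPM at 24 h and 1278, 1077 and 1427 CPM in uncut larvae (-0.52 ± 0.12, adjusted p = 0.0091), and the groups did not overlap. s100a10b, encoding a partner of annexin A2, fell by 0.63 ± 0.13 (adjusted p = 0.0035), and outside this list ccn2a, a connective tissue growth factor gene, fell by 0.98 ± 0.19 (adjusted p = 0.0031).

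The 2 epidermal genes that rose were the gel-forming mucin genes muc5.1 and muc5.2, which lie beside each other on chromosome 25 and were highest in 24 h replicate 1. muc5.1 had 442, 181 and 165 CPM at 24 h and 71.1, 119 and 147 CPM in uncut larvae (1.23 ± 0.34, adjusted p = 0.038). Without 24 h replicate 1 its adjusted p was 0.36 at 0.63, and the call was also lost without uncut replicate 1 (0.17) or 2 (0.089). muc5.2 had 96.4, 45.5 and 41.4 CPM at 24 h and 20.9, 20.2 and 12.9 CPM in uncut larvae (1.76 ± 0.46, adjusted p = 0.027). Its call was lost without 24 h replicate 1 (adjusted p = 0.18 at 1.27) and without uncut replicate 1 (0.064), 2 (0.066) or 3 (0.068).

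Of 61 fin regeneration genes, 1 rose and 1 fell (1.64% each), near the shares of 1.81% and 2.79% over all genes. The fall was and1, which encodes actinodin, a protein of the fibres that support the fin fold. It had 84.6, 66.7 and 48.8 CPM at 24 h and 169, 147 and 129 CPM in uncut larvae (-1.16 ± 0.26, adjusted p = 0.0085), and without 24 h replicate 3 the adjusted p was 0.061 at -0.97. fgf20a, the ligand gene needed to start the blastema, had 2.98, 3.66 and 2.91 CPM at 24 h and 3.51, 3.16 and 2.89 CPM in uncut larvae, which overlap. Of 104 cell cycle genes, 0 passed in edgeR, where 4.60% of all genes did, with 7 at an unadjusted p under 0.05. DESeq2 called 0 of them and limma 0, and without uncut replicate 3, 1 fell. Without the 4 libraries that stood apart, 10 cell cycle genes fell and 2 rose, and 4 fin regeneration genes fell and 6 rose. In that omission 1846 of all 20120 genes fell and 1779 rose. mki67, the gene of the proliferation antigen Ki-67, had 18.7, 14.7 and 12.6 CPM at 24 h and 13.8, 18.9 and 13.9 CPM in uncut larvae.

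The largest rise among genes that met the floor of 5 FPKM was lct, the brush-border disaccharidase gene lactase, whose symbol comes from the gene name table (ENSDARG00000092404, chr9:46387419-46399611). It had 211, 219 and 196 CPM at 24 h and 17.4, 16 and 28.2 CPM in uncut larvae, a mean 10.2-fold higher (3.35 ± 0.34, adjusted p = 3.6e-06). In 130 mM glucose it had 110, 78.4 and 62.1 CPM at 24 h and 113, 84.7 and 78.7 CPM uncut (-0.14), and in regular medium 75.3, 73.6 and 59.2 CPM at 24 h and 81.6, 77.9 and 48.8 CPM uncut (-0.00). The 222 mM libraries therefore lay on both sides of all others, above them at 24 h and below them when uncut. The response differed by 3.35 ± 0.45 from that in regular medium (adjusted p = 3e-04) and by 3.49 ± 0.45 from that in 130 mM (adjusted p = 0.00014). The level was still higher than in uncut larvae at 48 h (3.09). Another gene ID with the symbol lct, ENSDARG00000060671, is not described here, so these values are of a single lct gene.

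The next largest rise was that of eevs, whose enzyme makes the first intermediate of gadusol, a sunscreen compound of fish (chr6:43438074-43449013). It had 70.5, 76.7 and 73.2 CPM at 24 h and 9.65, 8.06 and 12.4 CPM in uncut larvae, a mean 7.33-fold higher (2.87 ± 0.46, adjusted p = 0.00053). In 130 mM glucose it had 19.2, 27.7 and 28 CPM at 24 h and 12.1, 13.5 and 14 CPM uncut, and in regular medium 13.3, 12.1 and 11.8 CPM at 24 h and 10.7, 11.1 and 6.18 CPM uncut. The 24 h libraries in 222 mM glucose were higher than all of these.

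Further rises came from genes with unrelated roles. ptgdsb.1, a gene of the lipocalin type prostaglandin D synthase family, had 3450, 3623 and 3211 CPM at 24 h and 1588, 1427 and 1224 CPM in uncut larvae (1.28 ± 0.15, adjusted p = 7.4e-06). usp21, a deubiquitinase gene, rose by 1.81 ± 0.36 (adjusted p = 0.0035), and slc1a2a, a glutamate transporter gene, by 1.47 ± 0.33 (adjusted p = 0.0094). uqcc6, whose product helps to assemble respiratory complex III, had 7.6, 7.24 and 7.26 CPM at 24 h and 1.51, 2.29 and 3.09 CPM uncut (1.68 ± 0.29, adjusted p = 0.00081). soul5, a gene of the heme-binding SOUL family, rose by 1.27 ± 0.15 (adjusted p = 1e-05), with 415, 364 and 337 CPM at 24 h and 161, 139 and 163 CPM uncut. The groups did not overlap for any of these 5 genes. Small rises were seen in mitochondrial enzymes: sdhb, a subunit of succinate dehydrogenase, had 360, 331 and 324 CPM at 24 h and 231, 185 and 241 CPM uncut (0.63 ± 0.10, adjusted p = 0.00048), and sdha rose by 0.44 ± 0.09 (adjusted p = 0.0056). They were among 3 of 85 oxidative phosphorylation genes that rose (3.53%, beside 1.81% of all genes), with 0 falls. Without uncut replicate 3, 10 rose, where 762 of all 20120 genes did. In a fit of the 6 libraries alone, 0 of the 85 passed.

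In the gut list, 3 of 53 genes rose (5.66%) and 2 fell (3.77%), beside 1.81% and 2.79% of all genes. Of the 53, 2 passed without 24 h replicate 1 and 8 without uncut replicate 3, where 1660 of all 20120 genes did. alpi, an intestinal alkaline phosphatase gene, had 21.5, 17.9 and 14.2 CPM at 24 h and 7.95, 6.56 and 7.61 CPM in uncut larvae (1.28 ± 0.28, adjusted p = 0.0069).

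Of 61 photoreceptor genes 9 rose (14.8%), 2 fell (3.28%) and 50 did not pass, beside 1.81% and 2.79% of all genes. The median was 0.14. When uncut replicate 3 was left out, 9 rose and 5 fell, where 762 and 898 of all 20120 genes did, and the median was -0.01. The list summed to 6883, 7878 and 7340 CPM at 24 h and to 5698, 5416 and 4531 CPM in uncut larvae, without overlap. The genes that rose include several of the light response. gnat2, the cone transducin gene (chr8:25225590-25235676), had 217, 244 and 226 CPM at 24 h and 133, 123 and 149 CPM in uncut larvae (0.76 ± 0.13, adjusted p = 0.00056). pde6c, the cone phosphodiesterase that closes the light-sensitive channel by breaking down cGMP, had 239, 294 and 257 CPM at 24 h and 128, 118 and 149 CPM uncut (1.0 ± 0.21, adjusted p = 0.0056). Both genes were higher in every 24 h library. pde6ha, an inhibitory subunit of that enzyme, rose by 1.40 ± 0.31 (adjusted p = 0.0073). grk7a, the cone opsin kinase that shuts off the activated pigment, had 110, 172 and 142 CPM at 24 h and 58.6, 45.1 and 38.4 CPM uncut (1.58 ± 0.30, adjusted p = 0.0022). rcvrn3, a recoverin gene, rose by 1.24 ± 0.29 (adjusted p = 0.011), rgs9a, which speeds up transducin's return to rest, by 0.93 ± 0.21 (adjusted p = 0.0091), and rbp3, the retinoid carrier between retina and pigment epithelium, by 0.87 ± 0.18 (adjusted p = 0.0047).

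The 2 genes that fell were cone pigments. opn1lw2, a red cone opsin gene (chr11:25481046-25483206), had 49.1, 73.7 and 55.6 CPM at 24 h and 281, 273 and 168 CPM in uncut larvae (-2.02 ± 0.31, adjusted p = 0.00022), with no overlap. opn1mw2, a green cone opsin gene, had 8.91, 10.7 and 9.46 CPM at 24 h and 35.2, 29.9 and 19 CPM uncut (-1.53 ± 0.43, adjusted p = 0.038), a call that the removal of any of 5 of the 6 libraries ended (adjusted p 0.081 to 0.14); it held without uncut replicate 3. Opsin genes have close neighbouring copies, which makes single-copy values uncertain. In the tests of a difference, gnat2 was higher in its response by 1.14 ± 0.18 than in regular medium (adjusted p = 0.00049) and by 1.01 ± 0.18 than in 130 mM (adjusted p = 0.0025). Against regular medium, 6 of the 61 genes differed upward (9.84%) and 0 downward, beside 1.29% and 2.57% of all genes. Against 130 mM glucose 4 differed upward (6.56%) and 1 downward (1.64%), beside 1.15% and 3.01% of all genes. Over the single-library omissions, 5 to 10 genes differed in either direction from regular medium, the most without regular medium uncut replicate 1. From 130 mM glucose 4 to 7 did, the most without 222 mM uncut replicate 3.

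**Figure D4:**
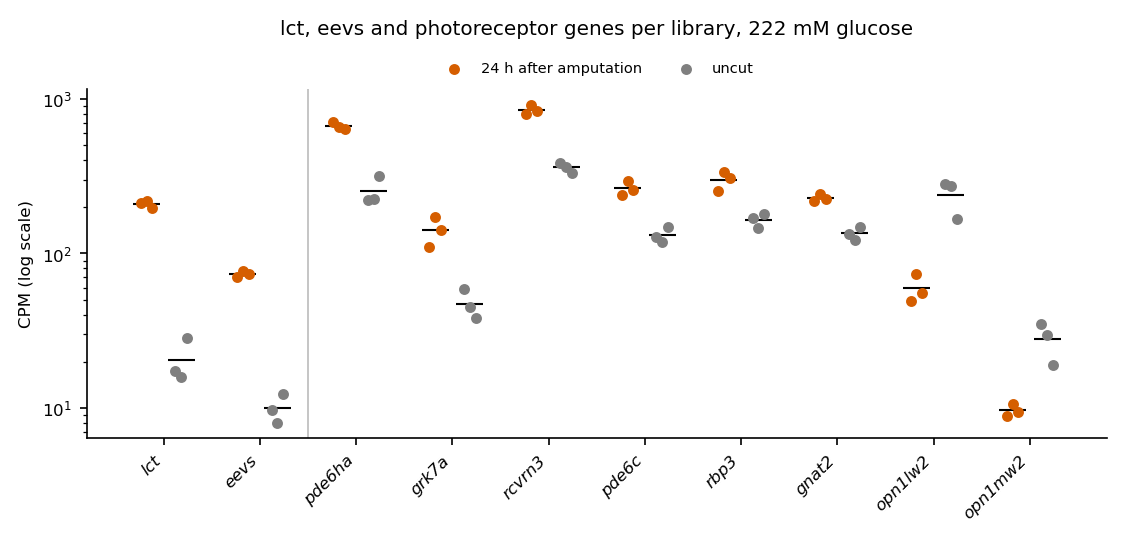
CPM (log axis) in each library of larvae in 222 mM glucose, 24 h after amputation (left, orange) and uncut (right, grey), for lct and eevs and for 8 photoreceptor genes. The 24 h points lie above the uncut points for every gene shown except the opsin genes opn1lw2 and opn1mw2, where they lie below.

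Lens genes looked lower but were not stable. Of 55 tested, 7 fell (12.7%, beside 2.79% of all genes) and 0 rose, with a median of -1.06. Yet the list sums overlapped, with 1800, 5345 and 3350 CPM at 24 h and 6228, 5274 and 11564 CPM in uncut larvae. Without uncut replicate 3, which had the highest sum, 0 of the 55 genes passed in edgeR (18 at an unadjusted p under 0.05). Without 24 h replicate 1 also 0 passed, while without 24 h replicate 2, 20 did. Of all 20120 genes, 1660, 457 and 609 passed in these omissions. Crystallin genes are also a family of near-identical copies.

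Among genes of glucose handling, 7 of 80 fell (8.75%) and 4 rose (5%), beside 2.79% and 1.81% of all genes. The median of the list was -0.09. The count ran from 2 to 14 when 1 library was left out, the fewest without uncut replicate 1 and the most without uncut replicate 3. The lowest adjusted p was that of pcxb, a gene of pyruvate carboxylase, the mitochondrial enzyme that opens gluconeogenesis and refills the citric acid cycle (chr7:60457138-60831105). It had 16, 13.9 and 14.2 CPM at 24 h, against 40.6, 36.5 and 35.8 CPM in uncut larvae (-1.36 ± 0.15, adjusted p = 4.4e-06). In 130 mM glucose pcxb had 38.3, 43 and 42.4 CPM at 24 h and 37.9, 37.3 and 41.1 CPM uncut, and in regular medium 61, 51.5 and 50.6 CPM at 24 h and 70, 61 and 40.3 CPM uncut. The 24 h libraries in 222 mM glucose were below all of these, and the response differed by -1.44 ± 0.21 from that in 130 mM (adjusted p = 0.00041) and by -1.29 ± 0.21 from that in regular medium (adjusted p = 0.00076). txnipa, a thioredoxin-interacting protein gene that mammalian cells switch on in high glucose, had 315, 364 and 423 CPM at 24 h and 672, 644 and 694 CPM in uncut larvae (-0.87 ± 0.20, adjusted p = 0.0091). Without 24 h replicate 1 its adjusted p was 0.065 at -0.77. Of 42 genes of osmolyte and polyol handling, a separate list, 3 fell (7.14%, beside 2.79% of all genes) and 0 rose. Without uncut replicate 3, 7 rose and 3 fell, where 762 and 898 of all 20120 genes did. Without 24 h replicate 1, 2 passed. One of the falls was khk, the fructose kinase gene, by 1.1 ± 0.23 (adjusted p = 0.0048). ins, the insulin gene, which belongs to the islet list, had 7.18, 9.22 and 8.85 CPM at 24 h and 11.6, 7.69 and 7.38 CPM uncut, which overlap.

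Of 38 genes of fatty acid and triglyceride synthesis, 2 rose (5.26%) and 1 fell (2.63%), beside 1.81% and 2.79% of all genes. Without 24 h replicate 1, 1 passed. acaca, the gene of acetyl-CoA carboxylase, which commits acetyl-CoA to fatty acid synthesis, had 220, 216 and 229 CPM at 24 h and 144, 143 and 158 CPM in uncut larvae (0.58 ± 0.12, adjusted p = 0.0036), without overlap. In regular medium it had 108, 101 and 99 CPM at 24 h and 141, 145 and 113 CPM uncut, and the responses differed by 0.96 ± 0.17 (adjusted p = 0.0013). Among genes of defence against oxidants, gpx4a, which reduces lipid peroxides, had 126, 155 and 127 CPM at 24 h and 92.6, 83.8 and 80.3 CPM uncut (0.67 ± 0.13, adjusted p = 0.0019), and its response was above that in 130 mM glucose by 1.18 ± 0.18 (adjusted p = 0.00049). gpx3, a secreted glutathione peroxidase gene, fell by 1.02 ± 0.19 (adjusted p = 0.0019).

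Of 59 hepatocyte markers 6 fell and 0 rose (10.2% fell, median -0.22). Leaving out uncut replicate 3 gave 4 falls, 2 rises and a median of -0.03. Of 49 complement and acute-phase genes 2 fell and 0 rose, a share of 4.08% near the 2.79% over all genes, with a median of -0.55. When that library was left out, 1 fell and the median was -0.13. bhmt, the liver enzyme that remethylates homocysteine with betaine, had 318, 415 and 428 CPM at 24 h and 579, 505 and 961 CPM in uncut larvae (-0.82 ± 0.17, adjusted p = 0.0048). hal, which starts histidine breakdown, had 23.7, 24.1 and 22.5 CPM at 24 h and 49.7, 46.2 and 48.9 CPM uncut (-1.04 ± 0.25, adjusted p = 0.012); without 24 h replicate 3 its adjusted p was 0.051 at -1.01. hpdb, an enzyme gene of tyrosine breakdown, fell by 0.57 ± 0.10 (adjusted p = 0.00081). None of these 3 overlapped between groups.

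The liver lists had the highest shares of members with a lower response than in 130 mM glucose. Of the 49 complement and acute-phase genes, 22 had a lower response in 222 mM (44.9%, median -1.70) and 0 a higher one. Of the 59 hepatocyte markers 16 were lower (27.1%, median -1.02) and 0 higher. Over all genes, 3.01% were lower and 1.15% higher, with a median of -0.03. In 130 mM glucose itself, 15 complement and acute-phase genes and 21 hepatocyte markers rose at 24 h, where 1.77% of all genes did. hp, the gene of the hemoglobin scavenger haptoglobin, had 16.5, 10.7 and 9.74 CPM at 24 h and 21, 21.6 and 25.5 CPM uncut in 222 mM glucose, against 25.1, 44.6 and 51.8 CPM at 24 h and 17.1, 8.32 and 9.91 CPM uncut in 130 mM glucose. The difference of the responses was -2.67 ± 0.45 (adjusted p = 0.0015). It was -2.54 ± 0.46 for ttr, which encodes the thyroid hormone carrier transthyretin (adjusted p = 0.0031), -2.42 ± 0.35 for hal (adjusted p = 4e-04) and -1.83 ± 0.40 for plg, the plasminogen gene (adjusted p = 0.01). All 4 differences held without each of the 12 libraries. The list counts did not: without 130 mM 24 h replicate 3, 6 complement and acute-phase genes and 7 hepatocyte markers passed, and without 130 mM 24 h replicate 1, which stood apart, 32 and 20 passed.

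Few inflammatory genes passed at 24 h in 222 mM glucose, where 4.60% of all genes did. Of 11 cytokine genes, 21 neutrophil markers and 37 interferon response genes, 0 passed in edgeR, which in lists this short is near that share. At an unadjusted p under 0.05 there were 1, 3 and 3, DESeq2 called 0, 0 and 0, and limma 0, 1 and 0. When 1 library was left out, 0 cytokine genes, 0 to 2 neutrophil markers and 0 to 1 interferon response genes passed; without uncut replicate 3 the 2 neutrophil markers rose, with 6 at an unadjusted p under 0.05. Without the 4 libraries that stood apart, 0 cytokine genes, 4 neutrophil markers and 2 interferon response genes rose. In that omission 1779 of all 20120 genes rose and 1846 fell. Of 35 macrophage markers, 1 fell and 0 rose. Of 32 inflammatory signalling genes, 2 rose (6.25%, against 1.81% of all genes) and 0 fell, with 0 to 2 called over the single-library omissions. Of 26 chemokine genes, 1 rose and 1 fell, with 0 to 3 called over the same omissions. Without the 4 libraries that stood apart, 3 macrophage markers rose and 1 fell, and 5 inflammatory signalling genes rose and 0 fell. Of the chemokine genes, 3 then rose and 1 fell. il1b, the gene of the cytokine interleukin 1 beta, had 4.06, 5.52 and 3.33 CPM at 24 h and 1.86, 2.73 and 6.68 CPM in uncut larvae. mmp9, a gelatinase gene of wounds, had 77, 58.1 and 95.4 CPM at 24 h and 30.6, 39.1 and 84.6 CPM uncut (0.58 ± 0.41, adjusted p = 0.48). mpx, the neutrophil myeloperoxidase gene, had 37.4, 31.7 and 33.2 CPM at 24 h and 28.6, 25.3 and 57.6 CPM uncut. In each of these 3 genes uncut replicate 3 was the highest uncut library, and the groups overlapped. The neutrophil list as a sum did not overlap, at 3503, 2478 and 2420 CPM at 24 h and 2164, 1856 and 1850 CPM uncut. The markers mpx, lyz and npsn made up only a small part of these sums. lyz had 15.5 to 22.3 CPM at 24 h and 17.5 to 30.8 CPM uncut, which overlap. npsn lay lower at 24 h, with 14.8 to 16 CPM against 18.2 to 25.6 CPM uncut, but did not pass. The median log2 fold change of the list was -0.09. nos2a, an inducible nitric oxide synthase gene, had 3.35, 5.08 and 3.54 CPM at 24 h and 0.436, 0.0376 and 1.05 CPM uncut (2.98 ± 0.77, adjusted p = 0.025). Its levels in uncut larvae were low. The call was lost without 24 h replicate 2 (adjusted p = 0.071), uncut replicate 1 (0.092) or uncut replicate 2 (0.11).

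The macrophage marker that fell was ctss2.1, a cathepsin S gene (chr16:29509133-29513434), which lies beside ctsk. It had 6.37, 10.8 and 11.1 CPM at 24 h and 22.6, 19.9 and 23.3 CPM in uncut larvae (-1.21 ± 0.17, adjusted p = 8.2e-05). In regular medium it had 21.8, 16.1 and 18.8 CPM at 24 h and 9.37, 8.82 and 8.21 CPM uncut (1.1), and the difference between the responses was -2.32 ± 0.25 (adjusted p = 2.9e-06). This gene has a near-identical copy, ctss2.2, so that its counts are uncertain. The macrophage marker mpeg1.1 (ENSDARG00000043093) lay higher at 24 h, with 25.9 to 38.6 CPM against 14.3 to 23.7 CPM uncut, but did not pass. Another ID matched to that symbol had 10.2 to 15.8 CPM at 24 h and 11.8 to 13.7 CPM uncut, which overlap. marco had 6.81 to 7.87 and 6.64 to 10.7 CPM, which also overlap. The macrophage list had a median of -0.11, and its sums overlapped.

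Over all genes, 777 responses differed between 222 mM glucose and regular medium (3.86%), 259 upward (1.29%) and 518 downward (2.57%). This balance was not stable. With limma on log2(FPKM + 0.1), 550 were upward and 281 downward, and in edgeR without the 4 libraries that stood apart, 1437 and 1425. Omitting 1 library gave 342 genes without regular medium 24 h replicate 1, 388 without its replicate 3, 506 without 222 mM 24 h replicate 1 and 1432 without regular medium uncut replicate 3, which stood apart; the other omissions stayed within 1.5 times. Of the 37 interferon response genes 10 were lower (27%, median -1.03) and 0 higher, of the 32 inflammatory signalling genes 6 were lower (18.8%) and 0 higher, and of the 35 macrophage markers 6 were lower (17.1%) and 0 higher. In regular medium, where 5.54% of all genes rose and 4.24% fell, 18, 17 and 12 members of these lists rose at 24 h. irf8, a transcription factor gene that macrophages need, had 5.26, 2.72 and 4.76 CPM at 24 h and 4.36, 4.51 and 4.88 CPM uncut in 222 mM glucose, against 14.8, 13.6 and 15.8 CPM at 24 h and 4.22, 3.42 and 3.62 CPM uncut in regular medium. Its uncut libraries lay between 3.42 and 4.88 CPM in both media, and the responses differed by -2.08 ± 0.33 (adjusted p = 0.00044). irf1b, an interferon regulatory factor gene, had 20, 18.1 and 16.7 CPM at 24 h and 14.4, 18.1 and 20.5 CPM uncut in 222 mM glucose, against 120, 110 and 119 CPM at 24 h and 26.6, 19.4 and 20.5 CPM uncut in regular medium (difference -2.34 ± 0.39, adjusted p = 0.00082).

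The remaining immune genes named showed the same sign. The difference was -2.24 for b2m, the light chain of class I histocompatibility molecules (adjusted p = 0.00049), -2.11 for tnfb, a tumour necrosis factor gene (adjusted p = 0.0038), -1.43 for spi1b, the myeloid factor Pu.1 (adjusted p = 0.002), and -1.0 for nfkb1, a subunit of NF-kappa-B (adjusted p = 0.0065). These and the irf8 and irf1b differences held without each of the 12 libraries. socs3b, a feedback inhibitor gene of cytokine signalling, differed by -1.17 ± 0.27 (adjusted p = 0.013), but not without 222 mM uncut replicate 3 (-0.84, adjusted p = 0.053). It had 65, 62.3 and 83.6 CPM at 24 h and 61.5, 50.6 and 99 CPM uncut in 222 mM glucose, so its level was above the 24.2 to 26.7 CPM of uncut larvae in regular medium both with and without amputation. Counts of interferon genes that differed in either direction ran from 6 to 10 over the single-library omissions, the fewest without regular medium 24 h replicate 1. They were 3 to 8 for inflammatory signalling, the fewest without 222 mM 24 h replicate 3. For macrophage markers they were 4 to 8, the fewest without 222 mM uncut replicate 3. Without the 4 libraries that stood apart, 10, 11 and 11 genes of these lists were lower.

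**Figure D5:**
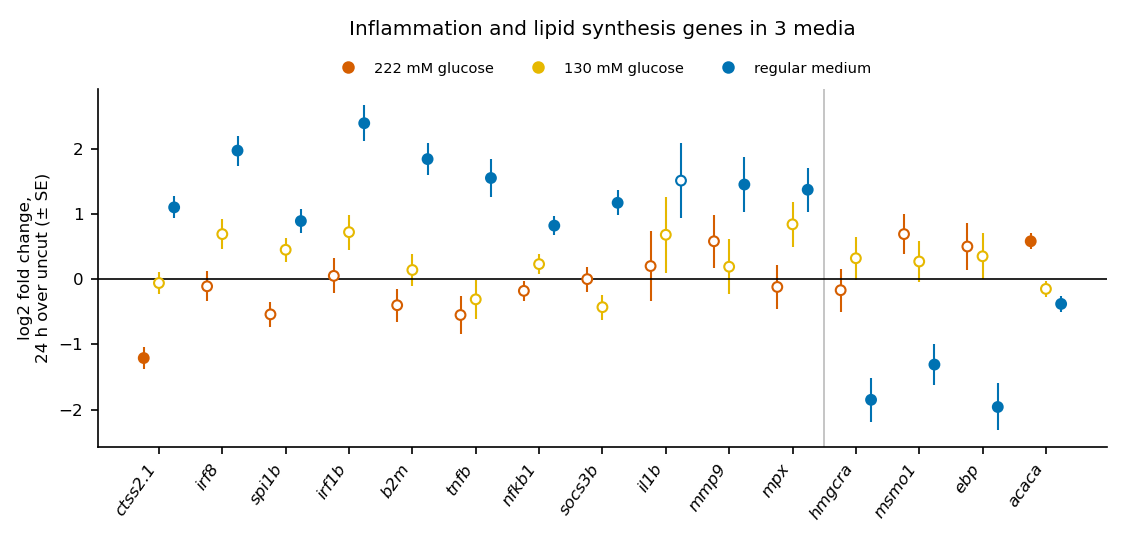
Log2 fold change at 24 h against uncut larvae (points, bars = SE) in 222 mM glucose, 130 mM glucose and regular medium for 11 immune genes and 4 genes of sterol and fatty acid synthesis; filled points have an adjusted p under 0.05. In regular medium irf8 stands at 1.97 and ebp at -1.96, while in 222 mM glucose irf8 stands at -0.11 and ebp at 0.50.

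Sterol synthesis was the list with the highest share of responses above those in regular medium. Of 39 genes, 10 were higher (25.6%, median 0.82) and 0 lower, beside 1.29% and 2.57% of all genes. Yet 0 of the 39 passed in 222 mM glucose itself (3 at an unadjusted p under 0.05, 0 by DESeq2, 0 by limma). In regular medium 19 fell and 0 rose at 24 h, where 4.24% and 5.54% of all genes did. ebp, a sterol isomerase gene, had 9.84, 11.9 and 11.8 CPM at 24 h and 6.72, 8.18 and 8.86 CPM uncut in 222 mM glucose, against 8.12, 9.81 and 8.33 CPM at 24 h and 42.1, 50.6 and 9.54 CPM uncut in regular medium. The difference was 2.46 ± 0.51 (adjusted p = 0.0066). It was 2.0 ± 0.44 for msmo1, a sterol demethylation enzyme gene (adjusted p = 0.011), and 1.68 ± 0.47 for hmgcra, the gene of the rate-limiting reductase of the pathway (adjusted p = 0.043). Uncut replicate 3 of regular medium had the lowest level of ebp, msmo1 and hmgcra in its group. Without it 22 sterol genes differed, and hmgcra passed in that omission alone (adjusted p 0.062 to 0.12 in the other 11). Without regular medium 24 h replicate 3, 2 sterol genes differed.

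The genes with the smallest adjusted p in this test included others outside these lists. fut9d, a fucosyltransferase gene, had 49.9, 63.2 and 50.1 CPM at 24 h and 44.2, 35.9 and 30.8 CPM uncut in 222 mM glucose, against 6.86, 8.04 and 6.73 CPM at 24 h and 22, 18.1 and 19.7 CPM uncut in regular medium (difference 2.02 ± 0.30, adjusted p = 0.00039). grk5, a kinase gene of G protein-coupled receptors, had 5.2, 5.42 and 4.76 CPM at 24 h and 3.35, 3.52 and 4.04 CPM uncut in 222 mM glucose, against 35.1, 35.1 and 34.4 CPM at 24 h and 8.12, 10.5 and 7.62 CPM uncut in regular medium (-1.50 ± 0.22, adjusted p = 0.00039). Its level at 24 h was thus lower in every 222 mM library than in any library of regular medium. dtnba, a dystrobrevin gene of the dystrophin complex, fell in 222 mM glucose by 0.83 ± 0.12 (adjusted p = 0.00012) and differed by -1.18 ± 0.17 (adjusted p = 0.00039). adssl1, an adenylosuccinate synthase gene of muscle, differed by -1.03 ± 0.15 (adjusted p = 0.00039).

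Against 130 mM glucose, the smallest adjusted p belonged to trpv6, the calcium channel gene of the uptake cells of the skin (chr16:12294284-12319822). In 222 mM glucose it had 54.6, 57.3 and 58.3 CPM at 24 h and 52.1, 55.2 and 62 CPM uncut, which overlap. In 130 mM glucose it had 17.8, 12.7 and 15.8 CPM at 24 h and 115, 83.6 and 93.9 CPM uncut, a fall of 2.66 on the log2 scale, and the responses differed by 2.67 ± 0.30 (adjusted p = 9.3e-06). ipo8, a nuclear import receptor gene, differed by -1.23 ± 0.19 (adjusted p = 6e-04). Of the interferon response genes 6 of 37 were higher than in 130 mM (16.2%) and 0 lower, beside 1.15% and 3.01% of all genes. isg15, an interferon-induced ubiquitin-like gene, had 5.64, 9.37 and 2.7 CPM at 24 h and 5.21, 4.14 and 2.33 CPM uncut in 222 mM glucose, against 0.288, 0.792 and 1.98 CPM at 24 h and 2.53, 17 and 10.3 CPM uncut in 130 mM glucose (difference 3.91 ± 0.89, adjusted p = 0.014). mxe, of the interferon-induced Mx family, differed by 5.31 ± 0.98 (adjusted p = 0.003), and its uncut libraries in 130 mM glucose had 0.997, 9.81 and 4.25 CPM. Without 130 mM uncut replicate 2, the highest of its group for both genes, 1 interferon gene passed and isg15 had an adjusted p of 0.054 at 3.28. ins differed by -1.43 ± 0.37 (adjusted p = 0.028), a call lost in 7 of the 12 omissions (adjusted p 0.051 to 0.093).

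Clock genes showed how much 1 uncut library could carry. Of 51, 5 fell (9.8%) and 2 rose (3.92%), beside 2.79% and 1.81% of all genes. tefa, a PAR bZIP factor gene driven by light and the clock, had 474, 481 and 471 CPM at 24 h and 205, 201 and 304 CPM in uncut larvae (1.01 ± 0.19, adjusted p = 0.002), without overlap. nfil3-5, a repressor gene that binds the same sites in mammals, had 170, 134 and 127 CPM at 24 h and 794, 818 and 76.3 CPM uncut, so that uncut replicate 3 lay below all 24 h libraries while the other 2 lay far above. The fall of 1.97 ± 0.57 (adjusted p = 0.047) was lost without any library other than that one (adjusted p 0.11 to 0.17). Without 24 h replicate 3, 1 clock gene passed. Without uncut replicate 3, 11 clock genes fell and 2 rose, where 898 and 762 of all 20120 genes did. The same library was high for a small heat shock gene and a muscle stress gene. hspb9 had 54.1, 56.4 and 63.7 CPM at 24 h and 43.1, 30.4 and 196 CPM uncut, and ankrd1a had 29.4, 17.4 and 23.7 CPM at 24 h and 19, 15.9 and 165 CPM uncut. Neither gene passed; their log2 fold changes were -0.63 for hspb9 and -1.51 for ankrd1a. Without uncut replicate 3 the signs reversed, to 0.66 for hspb9 and 0.42 for ankrd1a. The part of hour of sampling in the clock gene values was not tested.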

How the data were processed

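Whole-larva RNA was sequenced as paired ends on an Illumina instrument, per the series text. The authors mapped reads to GRCz11 with HISAT, assembled them with StringTie and calculated FPKM with StringTie and edgeR, per the submitters' processing notes and the series text. The deposited table holds read counts per gene and FPKM per library, both computed by the authors; how the counts were made, and whether strand was used, is not given in the sources used here. Counts are not normalized, and FPKM are corrected for transcript length and depth.

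From the deposited counts, those of 20120 of 30221 genes were kept, each reaching 1 FPKM in 3 or more libraries. All 36 libraries entered 1 edgeR quasi-likelihood fit (edgeR 4.0.16, R 4.3.3, TMM scaling, robust, common biological coefficient of variation 0.203), with 1 mean per group and no replicate block. Differences between responses were tested as contrasts of contrasts. P-values were adjusted by Benjamini-Hochberg over all genes tested. The code was tested on simulated data with known fold changes. Gene symbols come from the table and, for 1741 IDs, from a gene name table.

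Members and gene lists were chosen with earlier results of these data known. Named genes were the 15 largest rises and falls with non-overlapping libraries and at least 5 FPKM in the higher group, up to 6 called members per list by adjusted p, the 8 smallest adjusted p in each test of a difference, and fixed readouts; genes whose call held without each library were preferred. Alternatives were median-ratio scaling, no filter, DESeq2 1.42.0, and limma 3.58.1 on log2(FPKM + 0.1) and log2(FPKM + 1). Others were only the libraries compared, the same libraries with a replicate block, the criterion of the series text, and each library left out. No pair of replicates differed by less than sampling noise. Sequences were not used here.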

Additional observations from a re-analysis of the deposited data

Results flagged for a closer look

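For the genes here the 24 h response in 222 mM glucose differed from that in another medium by a test of the difference itself, in the edgeR fit with Benjamini-Hochberg adjustment, with 3 libraries in each of the 4 groups of a test. Over all genes tested, 777 differed from regular medium and 837 from 130 mM glucose. Explanations for the differences were not tested.

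Relative to regular medium, the response was lower for the xenobiotic genes cyp1a (-3.74), ahrra (-2.94) and foxq1a (-2.04) and for the growth factor gene fgf7 (-2.67). It was lower for the immune genes irf1b (-2.34), ctss2.1 (-2.32), b2m (-2.24), tnfb (-2.11), irf8 (-2.08), spi1b (-1.43), socs3b (-1.17) and nfkb1 (-1.0). It was also lower for ctsk (-1.74), grk5 (-1.50), pcxb (-1.29), dtnba (-1.18) and adssl1 (-1.03). It was higher for lct (3.35), the sterol genes ebp (2.46), msmo1 (2.0) and hmgcra (1.68), fut9d (2.02), gnat2 (1.14) and acaca (0.96). All values are differences of log2 fold changes, 222 mM minus regular medium. Over single-library omissions, the hmgcra call held only without regular medium uncut replicate 3. The socs3b call was lost without 222 mM uncut replicate 3.

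Relative to 130 mM glucose, the response was lower for the liver genes hp (-2.67), ttr (-2.54), hal (-2.42) and plg (-1.83) and for the muscle and cartilage genes acanb (-2.80), acta1a (-2.43), trdn (-1.70) and myhc4 (-1.64). It was also lower for pcxb (-1.44), ins (-1.43), ctsk (-1.40) and ipo8 (-1.23). It was higher for the interferon-induced genes mxe (5.31) and isg15 (3.91), lct (3.49), trpv6 (2.67), gpx4a (1.18) and gnat2 (1.01), on the same scale, 222 mM minus 130 mM. The ins call was lost in most single-library omissions, and the isg15 call without 130 mM uncut replicate 2.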

How the results depend on the processing

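The replicate block was fitted only to the libraries compared, so its counts belong beside those of that fit without the block. The count of 926 genes changed at 24 h was 225 in a fit of the 6 libraries alone, and 368 when that fit had the replicate block. It was 3625 without the 4 libraries that stood apart, and 457 to 1660 over single-library omissions. The 777 differences from regular medium became 1211 with DESeq2, 114 with only the libraries compared, and 77 when that fit had the replicate block. They became 2862 without the libraries apart and 342 to 1432 over omissions. The 837 differences from 130 mM became 1275 with DESeq2, 830 with only the libraries compared, and 525 when that fit had the replicate block. They became 1388 under the criterion of the series text, 3207 without the libraries apart and 326 to 1290 over omissions. Libraries of the same replicate number shared little deviation from their group means (correlations -0.0343, -0.0644 and 0.0764 for the 222 mM pairs). Such correlations over all genes cannot show whether the numbers pair samples. No called value of a gene named in the text changed sign: of 67 called genes, 67 passed with DESeq2 and with median-ratio scaling, 65 with limma at either pseudocount, 64 without the filter, 54 with the replicate block and 45 with only the 6 libraries. Values that were not called did change sign. Without the libraries apart ankrd1a was 0.42 and hspb9 0.66, and over omissions they ran from -1.98 to 0.42 and from -1.04 to 0.66. The cyp1a difference from 130 mM was 0.04 without the libraries apart and -0.86 to 0.14 over omissions, and irf8 ran from -0.29 to 0.13. The causes of these shifts were not tested. An omission leaves 2 libraries in a group, whose spread is then taken from all groups. Genes that reached 1 FPKM in fewer than 3 libraries were not tested, and the values are of whole larvae, not of the fin alone.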
